A study of Drosophila melanogaster with 9 samples.

Results

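The comparison described here set midguts of Drosophila larvae fed a wheat lectin against midguts of larvae labelled normal, the controls. Its members are the 3 arrays labelled WGA and the 3 labelled normal, chosen by their titles, which makes 6 of the 9 arrays of the series. The WGA group were w1118 larvae of the third instar, aged 108 h (108 to 110 h for replicate 1), that were then given food containing 1% wheat germ agglutinin (WGA) for 12 h. The 3 arrays of starved w1118 larvae had 108 h as their age and then 12 h without food. The control group were w1118 larvae of the third instar labelled 120 h old, with 12 h in their titles and no added agent named. If the 108 h mark the start of feeding, both groups were of like age at dissection, but the labels do not say so. Each array carried RNA from 1 pool of 50 midguts, and the labels call the pools biological replicates, so errors concern pools and not single larvae. The errors come from a fit of all 9 arrays and also draw on the spread of other probe sets. Every group was the same white-eyed laboratory strain, a limit on what the arrays say of other strains.

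WGA binds N-acetylglucosamine, the sugar unit of chitin and of many glycans on cell surfaces. In the fly midgut, chitin and glycoproteins form the peritrophic matrix that lines the lumen, and behind it enterocytes secrete digestive enzymes and absorb nutrients through a brush border. A lectin in the diet can therefore meet both the matrix and the sugar coat of the enterocytes.

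The 3 WGA arrays resembled each other more than they resembled the control arrays. Across tested probe sets, which give a description and no replicates, Pearson r was 0.940 to 0.950 among WGA arrays, 0.907 to 0.925 among control arrays and 0.843 to 0.871 between the groups. The deposited signals summed to 1184150 to 1457250 on the WGA arrays and 976428 to 1367790 on the control arrays. Of 13966 probe sets for fly transcripts, 9675 were bright enough on at least 3 of the 9 arrays to be tested, and precision is limited by having 3 arrays per group. With an adjusted p under 0.05 in limma (Benjamini-Hochberg adjustment over all tested probe sets), 2100 of them (21.7%) were called, 1125 rising (11.6%) and 975 falling (10.1%). With the brightest probe set standing for each of 7905 genes, 927 rose (11.7%) and 832 fell (10.5%), and the counts of the gene families below are read against these shares. Rises made 53.6% of calls here, against 82.2% with the signals as deposited and 84.1% with scaling on the spike-in controls, where the median change over the 9675 was 0.47 and 0.52 in place of 0.03. Every change below is therefore relative to the common distribution of the arrays. Values are log2 normalised signals, per array in the order of replicates 1 to 3, and log2 changes ± SE of the fit (n = 3 arrays per group).

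The midguts were checked against markers of their tissue and of neighbouring ones. Summed signals in this paragraph are linear signals as deposited, over all listed genes on the array, tested or not. Of 13 tested enterocyte genes 4 rose and 4 fell, and their summed signal was 14130 to 16500 after WGA and 20500 to 26090 in control. The enterocyte factor nub, which encodes a POU homeodomain protein, rose by 1.72 ± 0.20. No tested marker was called in limma among 5 of fat body, 4 of haemocytes, 2 of salivary gland, 3 of Malpighian tubule, 7 of visceral muscle, 6 of trachea and 3 of stem or progenitor cells. At an unadjusted p under 0.05 in limma, 6 of these 30 genes differed, 1 higher and 5 lower after WGA. The 1 higher was a stem or progenitor gene. The 5 lower were 1 salivary gland gene, 1 tracheal gene and all 3 tested Malpighian tubule genes. Changes of the tubule genes were -0.64 ± 0.27 for ZnT35C, -1.05 ± 0.41 for NaPi-T and -1.30 ± 0.485 for Oatp58Dc. For fat body the summed signals were 227 to 387 after WGA and 189 to 260 in control. For haemocytes they were 35.4 to 83.1 after WGA and 25.1 to 58.4 in control. The summed signals were 14.9 to 72.8 after WGA and 33.7 to 47.5 in control for salivary gland, 68.9 to 96.4 after WGA and 84.1 to 139 in control for Malpighian tubule, and 59.9 to 90.1 after WGA and 40.2 to 81.2 in control for trachea. The haemocyte genes NimC1, eater, lz and srp were too dim to be tested. Visceral muscle genes summed to 1628 to 4259 after WGA and 1611 to 2374 in control, and stem and progenitor genes to 61.0 to 75.5 after WGA and 24.2 to 39.9 in control. Of 9 enteroendocrine genes, the peptide hormone genes AstC and CCHa2 fell, though not with the deposited or the spike-in scaling, and CCHa2 not without control replicate 1, control replicate 3, WGA replicate 1 or WGA replicate 2. Together with amon, which was on the array but not tested, the 9 genes summed to 158 to 210 after WGA and 174 to 213 in control. The part of these shifts in the results below was not tested, and in whole midguts fewer cells of a type and less RNA per cell cannot be told apart. RNA integrity was read from 3 control transcripts. For eIF-4a the 3 prime signal over the 5 prime signal was 2.75 to 3.52 on the WGA arrays and 3.60 to 5.71 on the control arrays. The same ratio overlapped between the groups for actin, at 1.17 to 1.49 on the WGA arrays and 1.44 to 2.36 on the control arrays, and for GAPDH, at 2.22 to 2.41 on the WGA arrays and 1.97 to 2.92 on the control arrays.

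Outside the groups of digestive, detoxifying, respiratory and stress genes listed in an earlier account of these arrays, the largest rises among genes with a name included proteins of membranes and their lipids. GramD1B, whose mammalian relatives carry sterol between the plasma membrane and the endoplasmic reticulum, had log2 signals of 4.97, 5.11 and 5.18 after WGA and 1.27, 2.06 and 1.59 in control. Its rise of 3.45 ± 0.43 (adjusted p = 5.89e-05, limma) is uncertain in size, because the control arrays lay below the filter level of 2.79. Fa2h, an enzyme that hydroxylates the fatty acids of sphingolipids, had 8.96, 9.05 and 9.01 after WGA and 5.67, 6.22 and 6.67 in control, a rise of 2.82 ± 0.21 (adjusted p = 5.80e-07, limma). For both genes every WGA array lay above every control array. GlcT makes glucosylceramide, the first glycosphingolipid. It had 5.69, 5.34 and 5.63 after WGA and 2.72, 3.63 and 2.70 in control, a rise of 2.54 ± 0.33. The scavenger receptor gene pes, of the CD36 family, had 8.87, 8.96 and 9.07 after WGA and 6.17, 6.24 and 6.70 in control, a rise of 2.60 ± 0.19. GlcAT-S transfers glucuronic acid onto sugar chains and had 6.60, 6.43 and 6.24 after WGA and 3.65, 3.87 and 3.93 in control, a rise of 2.61 ± 0.26. In all these genes the arrays of the groups lay at least 1 log2 unit apart.

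Other large rises were in anchors, adaptors and structural proteins. Akap200, which anchors protein kinase A at membranes, had 9.20, 9.21 and 9.34 after WGA and 5.47, 6.33 and 6.68 in control, a rise of 3.09 ± 0.26. Arc1, related to retroviral capsid proteins and able to carry RNA between cells, had 10.61, 10.92 and 10.84 after WGA and 7.81, 7.63 and 8.39 in control, a rise of 2.84 ± 0.20. The autophagy receptor gene ref(2)P had 9.59, 9.74 and 9.81 after WGA and 6.02, 7.04 and 7.52 in control, a rise of 2.86 ± 0.29. ALiX, which works beside the ESCRT machinery at endosomes, had 9.85, 10.01 and 9.98 after WGA and 7.12, 7.23 and 7.61 in control, a rise of 2.63 ± 0.15. The tubulin folding cofactor gene Tbca had 9.22, 9.10 and 8.96 after WGA and 6.70, 6.78 and 6.17 in control, a rise of 2.54 ± 0.19. Among them Arc1 and ALiX were the brightest, and no control array reached the lowest WGA array. The septate junction gene bark rose by 3.14 ± 0.39, the cadherin gene kug by 2.63 ± 0.40 and Srg2 by 2.94 ± 0.33, all from control means below the filter level. The esterase gene alpha-Est9 and Ag5r, of the antigen 5 family of secreted proteins, completed the 15 with rises of 2.68 ± 0.27 and 2.63 ± 0.48. On the Ag5r probe set control replicate 1 was at 6.75, well above the other two control arrays at 4.52 and 4.49.

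The largest falls among named genes included several for vitamins, amino acids and small metabolites. Smvt, a relative of the mammalian carrier of biotin and pantothenate, had 4.39, 4.45 and 3.59 after WGA and 6.62, 6.79 and 6.64 in control, a fall with a log2 change of -2.54 ± 0.27 (adjusted p = 1.23e-05, limma). The gene vanin-like, whose mammalian relatives free pantothenate from pantetheine, had 2.41, 3.81 and 4.50 after WGA and 7.01, 6.92 and 7.77 in control, a change of -3.66 ± 0.54 (adjusted p = 0.00024, limma). The vanin-like arrays were scattered after WGA, yet none reached the lowest control array. Ctns, related to the lysosomal cystine exporter, had 6.03, 6.32 and 6.38 after WGA and 8.53, 8.98 and 9.03 in control, a change of -2.60 ± 0.19. The gene aay encodes phosphoserine phosphatase, the last step of serine synthesis, and had 4.96, 4.82 and 4.66 after WGA and 7.06, 7.21 and 7.49 in control, a change of -2.44 ± 0.27. Aldh-III, an aldehyde dehydrogenase of the class that acts on fatty aldehydes, had 5.91, 5.91 and 6.05 after WGA and 8.52, 8.52 and 8.53 in control, a change of -2.57 ± 0.19. The control arrays lay almost on 1 value, and the WGA arrays were nearly as close.

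Other falls were in genes of several kinds. Mipp1, an inositol polyphosphate phosphatase, had 4.99, 5.49 and 5.82 after WGA and 7.83, 8.05 and 8.50 in control, a change of -2.70 ± 0.23. TrissinR, the receptor of the neuropeptide trissin, had 4.31, 4.35 and 4.32 after WGA and 6.60, 7.04 and 7.30 in control, a change of -2.65 ± 0.22. The gene sun, for the epsilon subunit of ATP synthase, had 8.07, 7.81 and 7.69 after WGA and 10.76, 10.25 and 9.70 in control, a change of -2.38 ± 0.26. Signal of sun stayed high on every array. ScpX, a thiolase related to sterol carrier proteins, changed by -2.44 ± 0.24 and Phyhd1, of the phytanoyl-CoA dioxygenase family, by -2.81 ± 0.33. The nocturnin homologue cu changed by -2.43 ± 0.28 and Jheh2, which opens the epoxide of juvenile hormone, by -2.36 ± 0.17. The sugar-responsive transcription factor gene sug changed by -3.0 ± 0.33. Scp2, for a calcium-binding protein, and HisT changed by -3.88 ± 0.45 and -3.05 ± 0.46 to WGA means below the filter level. By the naming rule none of these 30 genes has overlapping groups, as 38.3% of all tested probe sets do not.

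**Figure D1:**
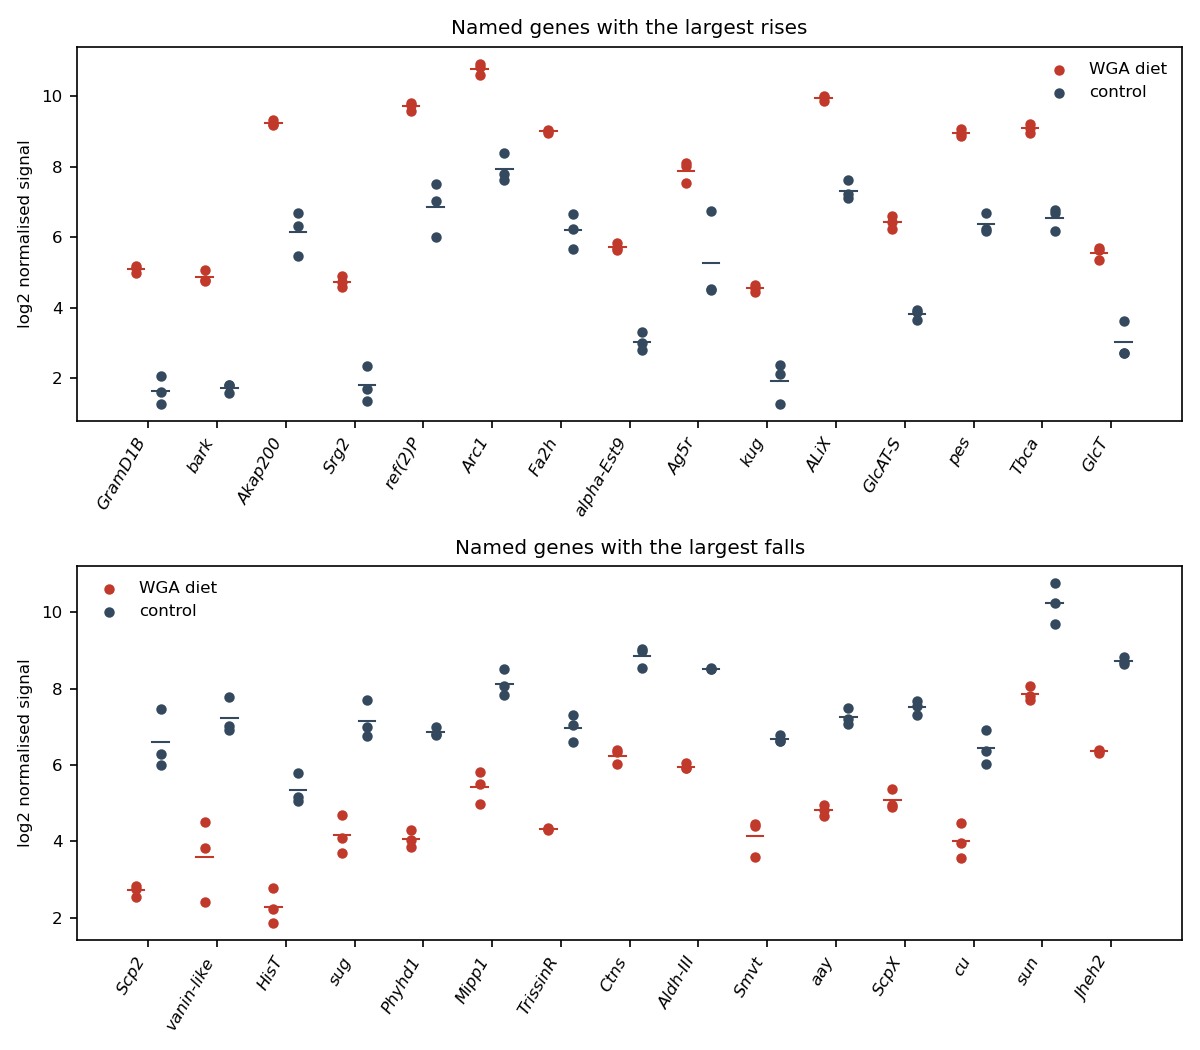
Log2 normalised signal of the 15 largest rises (top) and the 15 largest falls (bottom) among named genes, with 1 point per array (red, WGA diet; dark blue, control) and a short line at each group mean. The red and dark points do not overlap for any gene; GramD1B, bark, Srg2 and kug lie below 2.79 in control, and Scp2 and HisT after WGA.

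Several genes known only by number changed as much. CG10911 was among the brightest, at 12.62, 12.65 and 12.74 after WGA and 8.53, 9.18 and 9.36 in control, a rise of 3.65 ± 0.22. CG5550 had 10.36, 10.57 and 10.49 after WGA and 7.15, 6.94 and 6.73 in control, a rise of 3.53 ± 0.20. CG9743, a relative of fatty acyl desaturases, had 10.99, 10.91 and 10.67 after WGA and 7.59, 7.41 and 6.71 in control, a rise of 3.62 ± 0.22 (adjusted p = 1.16e-07, limma). CG10562 and the chitin-binding domain genes CG10725 and CG32302 rose by 3.67 ± 0.24, 3.45 ± 0.58 and 3.44 ± 0.29. For CG10725 control replicate 1 was at 8.81, well above the other control arrays at 6.52 and 6.57, so the size of its rise is uncertain. Among the falls, CG18585 and CG7025 encode zinc carboxypeptidases and CG15253 an astacin-type protease, described below. CG8745 changed by -4.34 ± 0.56 and CG15155 by -4.12 ± 0.42, both to WGA means below the filter level. CG11892, a kinase-like gene, changed by -3.67 ± 0.77.

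The same genes were then set against the starved midguts, to ask which changes went beyond 12 h without food. That contrast shares the 3 WGA arrays with the control comparison, from which the genes were chosen, so its counts are a description. Of the 15 named rises 13 were also called higher after WGA than after starvation, against 5.94% of all tested probe sets. GlcAT-S was higher after WGA than after starvation by 3.37 ± 0.26, GlcT by 2.76 ± 0.33, Tbca by 2.47 ± 0.19 and pes by 2.26 ± 0.19. For Srg2 the difference was 0.06 ± 0.33 and for kug 1.24 ± 0.40, neither of them called. Of the 15 named falls 6 were called lower after WGA than after starvation, against 5.57% of all tested probe sets. These 6 included Scp2, at -3.73 ± 0.45, Mipp1, at -2.49 ± 0.23, and TrissinR, at -1.82 ± 0.22. For sug and Phyhd1 the signal was higher after WGA than after starvation, by 2.42 ± 0.33 and 1.66 ± 0.33, so the starved midguts lay further from control. The other 7, among them aay, Ctns, Smvt and sun, were not called between the treatments. Of the 6 largest rises among genes with a number only, 3 were called higher after WGA than after starvation, CG9743 by 4.32 ± 0.22, CG5550 by 3.25 ± 0.20 and CG10911 by 1.58 ± 0.22. The differences of CG10562 (0.61 ± 0.24), CG10725 (1.33 ± 0.58) and CG32302 (0.62 ± 0.29) were not called. Of the 6 largest falls of this kind only CG18585 was called lower after WGA than after starvation, at -0.94 ± 0.20.

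Beyond single genes, 71 gene families outside the earlier lists were counted, with 1140 tested genes, of which 145 rose and 119 fell. Families are described by these counts and by their median change, beside 11.7% risen and 10.5% fallen among all tested genes and a median of 0.03. Of the families, 6 were added after the values had been seen, as marked at each.

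**Figure D2:**
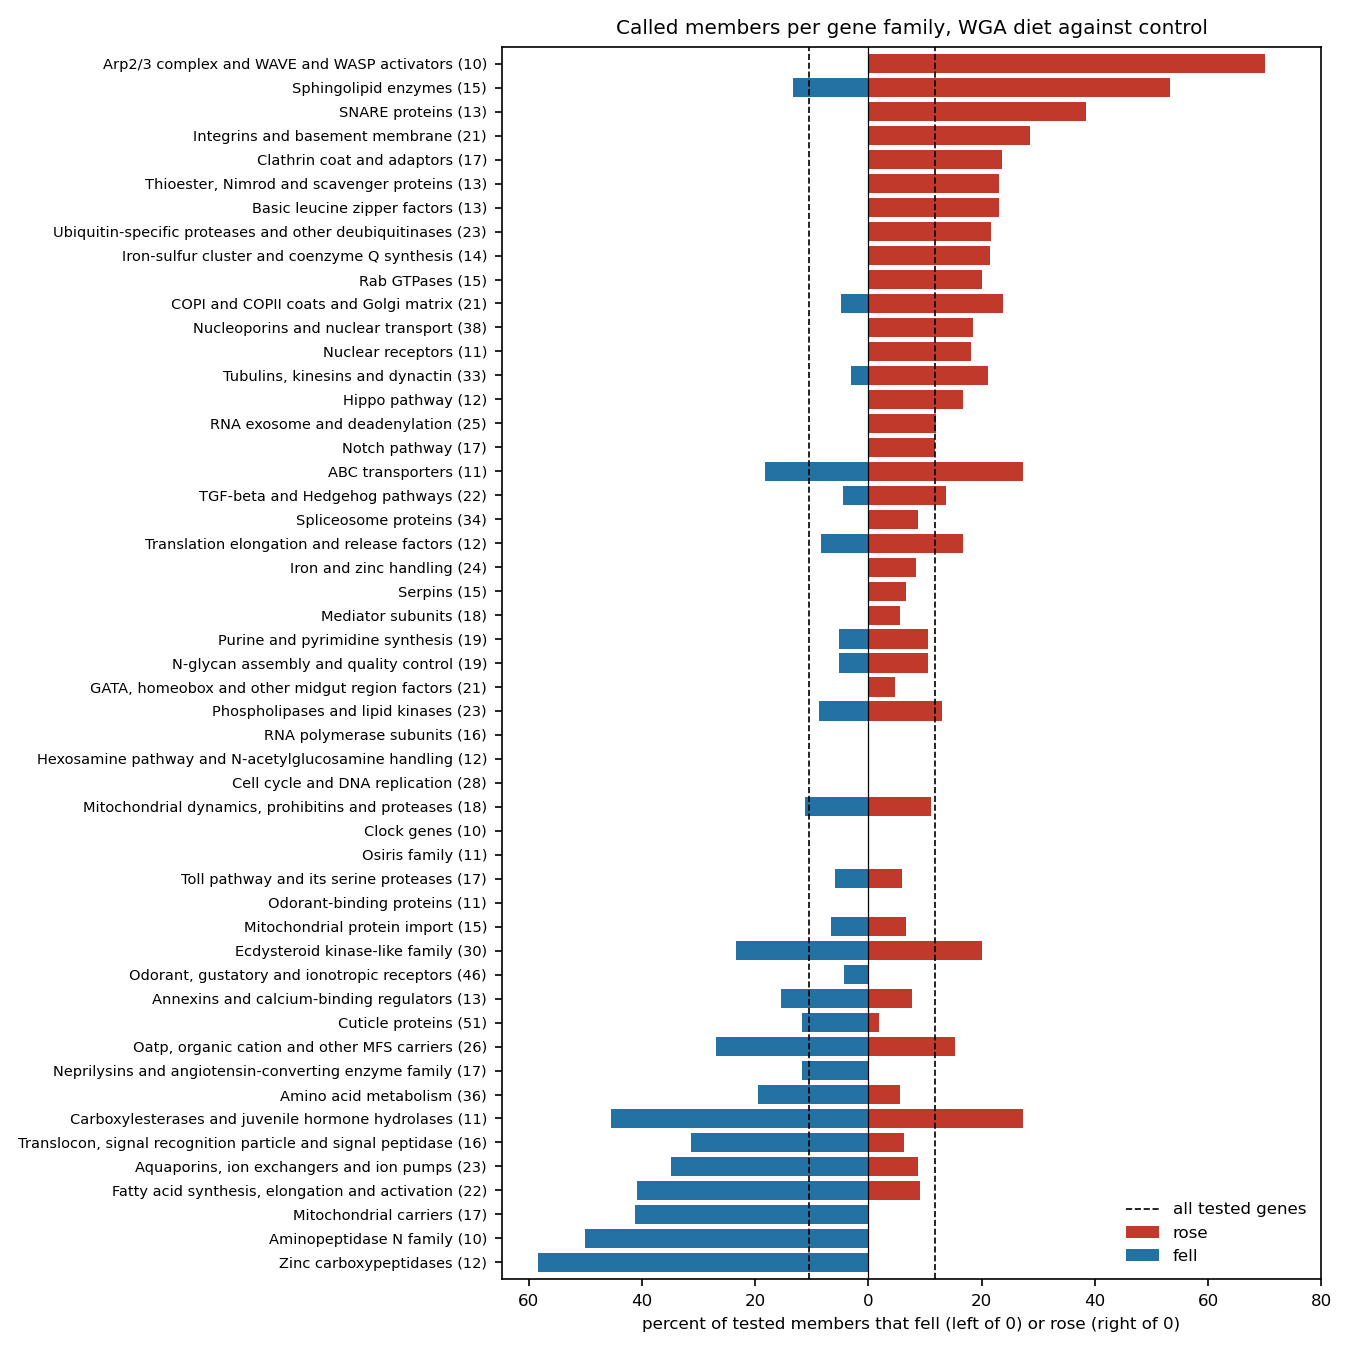
Share of tested members that rose (red, right of 0) or fell (blue, left of 0), in percent, for the families shown, each with at least 10 tested genes (number in brackets), ordered by the difference of the shares. Dashed lines mark 11.7% risen and 10.5% fallen among all tested genes. Actin nucleation and sphingolipid enzymes stand at the top of that order, and zinc carboxypeptidases and the aminopeptidase N family at the bottom. Of these, only the sphingolipid enzymes were chosen before the values were seen. The places of the others, and of the clathrin and ecdysteroid kinase-like families, also added later, are therefore no result.

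Enzymes of sphingolipid metabolism build ceramide from serine and fatty acids, pass it to the Golgi, and turn it there into sphingolipids with a head group. Of 15 tested, 8 rose and 2 fell, with a median change of 0.81. At the entry of the pathway, lace, a subunit of serine palmitoyltransferase, had 7.37, 7.35 and 7.43 after WGA and 6.47, 6.24 and 6.11 in control, a rise of 1.11 ± 0.18 (adjusted p = 0.000628, limma). The ceramide synthase gene schlank rose by 0.86 ± 0.20 and the desaturase gene ifc by 0.81 ± 0.13. The transfer protein gene cert, whose product moves ceramide to the Golgi, rose by 2.14 ± 0.19. The step after GlcT is carried out by the mannosyltransferase of egh. It had 7.22, 7.14 and 6.92 after WGA and 5.21, 5.43 and 5.18 in control, a rise of 1.82 ± 0.20 (adjusted p = 1.72e-05, limma). For lace and egh every WGA array lay above every control array. The other 2 rises, Spt-I (0.72 ± 0.19) and SMSr (1.71 ± 0.53), were called with weaker support. The Spt-I call was lost without control replicate 2, WGA replicate 1 or WGA replicate 3, and the SMSr call without any one array except control replicate 3. The 2 falls were in genes of breakdown, Sply, the sphingosine phosphate lyase, at -0.82 ± 0.22, and the sphingomyelinase gene nSMase, at -0.63 ± 0.21. No fall was called with the deposited or the spike-in scaling, where 9 members rose. Nor was a fall called without control replicate 3 or WGA replicate 1, and 1 was with any other single array left out. The ceramidase gene CDase had a change of -0.17 ± 0.22 and the sphingosine kinase gene Sk1 one of 0.89 ± 0.31, neither called. ORMDL, whose relatives hold serine palmitoyltransferase back, was no member of the list. Picked after its values were seen, it had 7.28, 7.23 and 7.24 after WGA and 8.08, 7.78 and 8.01 in control, a change of -0.71 ± 0.14 that passed the test, though not with the deposited or the spike-in scaling.

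**Figure D3:**
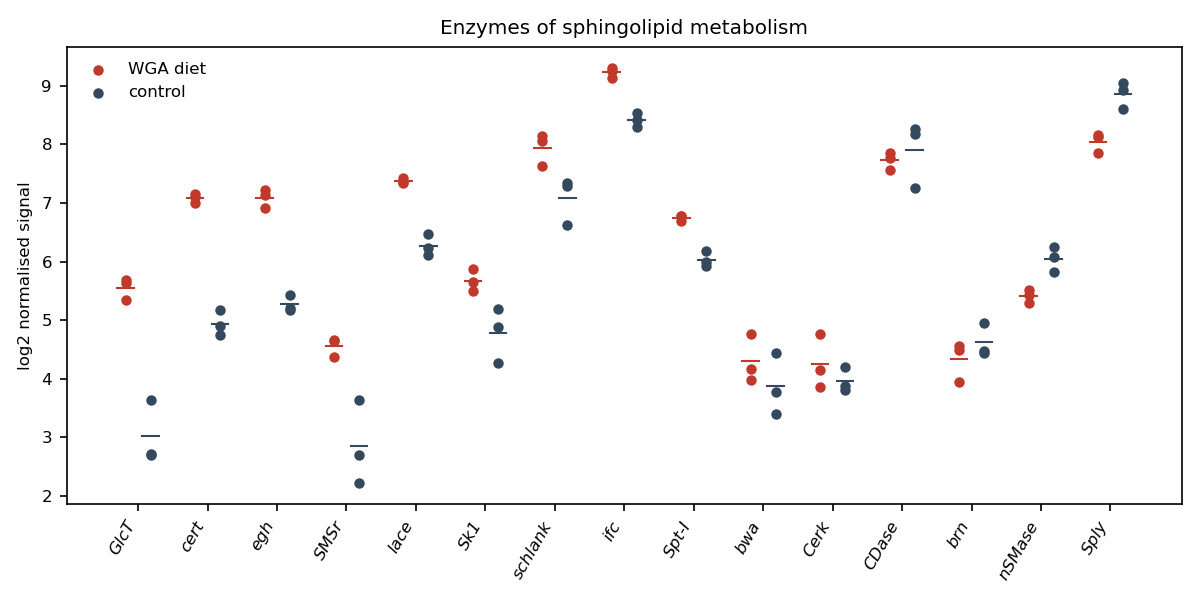
Log2 normalised signal of the 15 tested sphingolipid enzymes, ordered by their change, with 1 point per array (red, WGA diet; dark blue, control) and a short line at each group mean. From GlcT to lace the red points lie above all dark points, and for nSMase and Sply, at the right end, below them.

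The Arp2/3 complex starts branched actin filaments, and WAVE and WASP proteins switch it on. This family was added after the values had been seen. Of its 10 tested genes 7 rose and none fell, median 1.07. The 6 Arpc genes, for subunits of the complex, all rose, and with array signals left as deposited or scaled on the spike-in controls the family had 9 and 8 rises. Arpc3A had 8.11, 7.93 and 8.19 after WGA and 6.87, 6.45 and 6.39 in control, a rise of 1.51 ± 0.17. Arpc3B and Arpc4 rose by 1.37 ± 0.17 and 1.18 ± 0.17, and Arpc1 and Arpc5 by 0.97 ± 0.14 and 0.89 ± 0.16. The Arpc2 rise was 0.60 ± 0.17, and its call was lost without control replicate 1, WGA replicate 1 or WGA replicate 2. Hem, of the WAVE complex, rose by 1.64 ± 0.44 from a control mean below the filter level, and was not called without control replicate 1, WGA replicate 2 or WGA replicate 3. The actin changes lay beside others in the cell cortex. Of 21 genes for integrins and basement membrane 6 rose and none fell. Paxillin (Pax) rose by 1.03 ± 0.17, talin (rhea) by 0.99 ± 0.23 and the beta integrin gene mys by 0.86 ± 0.19. Among 33 genes for tubulins, kinesins and dynactin 7 rose and 1 fell, with Tbca, Tbcb at 1.62 ± 0.35 and Klc, a kinesin light chain, at 1.11 ± 0.20. The tubulin group had 11 rises with the deposited or the spike-in scaling, and 4 without WGA replicate 2 or without WGA replicate 3.

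Most groups of vesicle traffic genes had more rises than falls. Of 17 genes for the clathrin coat and its adaptors, a family added after the values were seen, 4 rose and none fell. The dynamin gene shi, which cuts clathrin vesicles free, had 5.47, 5.32 and 5.38 after WGA and 4.02, 4.22 and 4.52 in control, a rise of 1.13 ± 0.24. The clathrin count was 7 with the deposited or the spike-in scaling, and 2 without WGA replicate 2 or without WGA replicate 3. Of 13 genes for SNAREs and their attachment proteins 5 rose and none fell. Steady in every array left out was gammaSnap1, for an attachment protein and not a SNARE, at 1.16 ± 0.22. The count of this group was 1 without WGA replicate 2, the call of gammaSnap1. It was 3 without control replicate 1, control replicate 2, WGA replicate 1 or WGA replicate 3. Of 15 Rab GTPase genes 3 rose, with Rab18 at 1.01 ± 0.17 and Rab14 at 0.90 ± 0.21. Genes of the COPI and COPII coats and the Golgi matrix gave 5 rises and 1 fall of 21, with alphaCOP at 0.85 ± 0.19. Those 5 became 2 without any one of the WGA arrays, and 10 and 9 with the deposited and the spike-in scaling, where Rab genes had 5 rises. The translocon threads new proteins into the endoplasmic reticulum. Genes for the translocon, signal recognition particle and signal peptidase, counted together, went the other way, with 5 falls and 1 rise of 16. Direction in this group depended on scaling. With the deposited signals 2 rises and no fall were called, and with spike-in scaling 3 rises and 1 fall. Falls of the group numbered 3 when control replicate 2 was left out and 2 for WGA replicate 1. They numbered 1 without control replicate 1, WGA replicate 2 or WGA replicate 3.

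In 3 peptidase families picked after the values were seen, falls outnumbered rises, a direction that is therefore no result. Among families chosen first, neprilysins and angiotensin-converting enzyme relatives gave 2 falls of 17 (11.8%, median -0.08). Leucyl and other aminopeptidases and carboxypeptidases gave 3 falls of 9 (33.3%, median -0.31), and neither family had a rise. With the deposited or the spike-in scaling each had 1 fall, beside 3 rises and 1 rise. Zinc carboxypeptidases cut amino acids from the C-terminal end of peptides, and of 12 tested, in a family added after the values had been seen, 7 fell and none rose (median -0.95). CG18585 had 6.02, 5.46 and 5.34 after WGA and 9.73, 9.57 and 9.43 in control, a change of -3.97 ± 0.20 (adjusted p = 1.58e-08, limma). CG7025 had 4.93, 5.10 and 4.92 after WGA and 8.51, 8.54 and 8.89 in control, a change of -3.66 ± 0.20 (adjusted p = 4.46e-08, limma). Both had high signals in control, and no WGA array came within 2 log2 units of a control array. CG17633, the brightest of those named, had 10.24, 10.46 and 10.86 after WGA and 12.49, 12.62 and 12.50 in control, a change of -2.01 ± 0.17. CG32379 changed by -1.81 ± 0.26 and CG8560 by -1.15 ± 0.15. The family had 7 falls with any single array left out, 6 with the deposited scaling and 5 with the spike-in scaling. Aminopeptidases of the N family remove residues from the other end, and of 10 tested, also added after the values were seen, 5 fell and none rose. CG31233 had 9.03, 8.35 and 8.64 after WGA and 10.19, 10.21 and 10.11 in control, a change of -1.5 ± 0.17. Its was the only fall of the 5 still called with the deposited and the spike-in scaling, which each called 1 rise as well. Of 9 astacin-type metalloproteases, a further family added after the values were seen, 3 fell and 1 rose. CG15254 had 3.30, 3.26 and 2.86 after WGA and 5.52, 5.46 and 5.85 in control, a change of -2.47 ± 0.32, and CG7631 changed by -1.45 ± 0.20. CG15253 changed by -3.70 ± 0.37, to a WGA mean below the filter level. CG15255, a family member with a like number, had 8.15, 8.60 and 8.37 after WGA and 7.43, 7.71 and 7.39 in control, a rise of 0.86 ± 0.20. These 4 astacin calls held with every single array left out and with the deposited and spike-in scalings. Probes of near-identical members may bind each other's transcripts, so their separate values are uncertain.

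**Figure D4:**
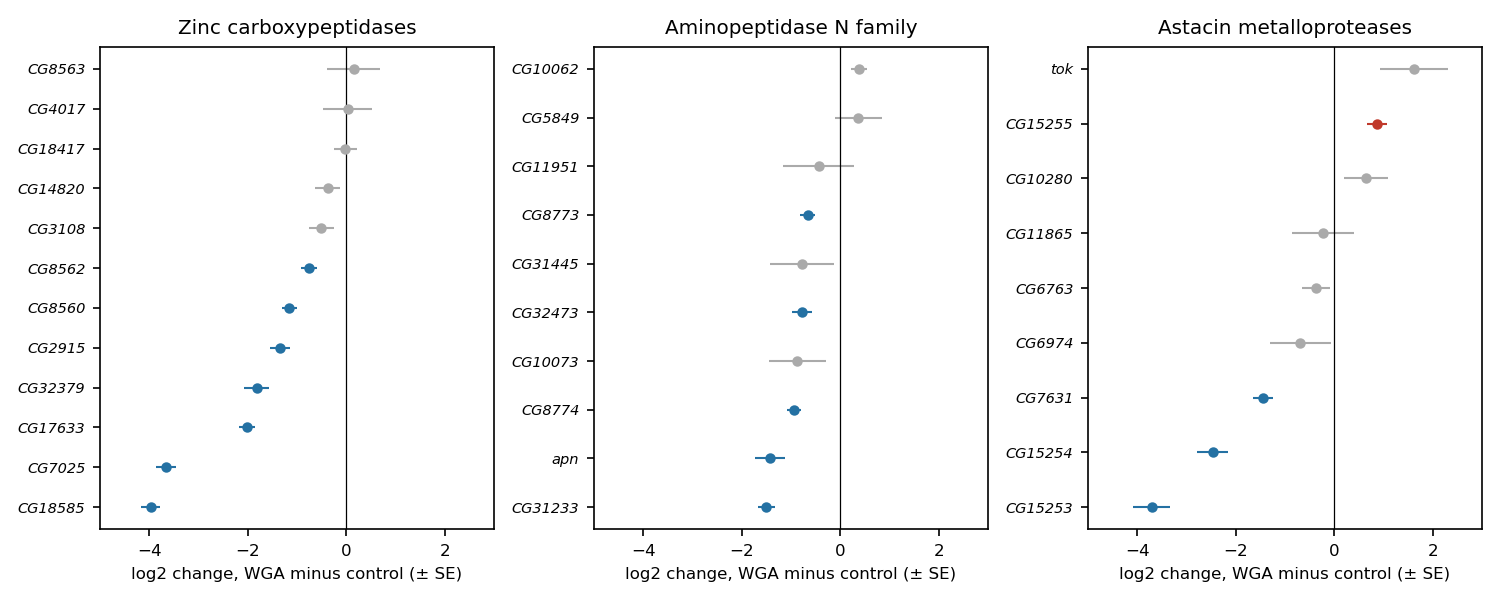
Log2 change, WGA minus control, of each tested member of 3 peptidase families, with SE bars (blue, fell; red, rose; grey, not called). The carboxypeptidase genes CG18585 and CG7025 lie near -4, and CG15255 is the red point among astacins.

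The ecdysteroid kinase-like genes form a large insect family of predicted small-molecule kinases, discussed as modifiers of steroid hormones and of foreign compounds. This family, too, was added after the values had been seen. Of 30 tested 6 rose and 7 fell, with changes between -3.67 ± 0.77 and 3.67 ± 0.24 and a median of -0.42. CG10562 had 9.52, 9.14 and 8.92 after WGA and 5.5, 5.55 and 5.54 in control (adjusted p = 1.84e-07, limma). CG13659 had 7.29, 7.32 and 7.49 after WGA and 5.14, 5.21 and 5.25 in control, a rise of 2.17 ± 0.17. CG11893 rose by 2.04 ± 0.36. Against them, CG9259 had 2.52, 3.63 and 4.35 after WGA and 6.50, 7.29 and 7.41 in control, a change of -3.57 ± 0.60 (adjusted p = 0.000669, limma). CG10513 had 2.60, 3.04 and 4.53 after WGA and 5.80, 6.75 and 6.20 in control, a change of -2.86 ± 0.53. CG10514, with a WGA mean below the filter level, changed by -3.08 ± 0.74. CG10560 changed by -1.72 ± 0.26. CHKov1, a member with a name, had a change of 0.49 ± 0.22, not called. The family held changes of more than 2 log2 units in both directions, where the groups did not overlap for the genes named as called.

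Carboxylesterases split in the same way. Of 11 esterase and juvenile hormone hydrolase genes 3 rose and 5 fell. The alpha-esterase genes are a cluster of related enzymes, and within them alpha-Est9 had 5.63, 5.83 and 5.69 after WGA and 2.8, 3.30 and 3.0 in control, a rise of 2.68 ± 0.27. Its relative alpha-Est2 had 4.50, 4.50 and 4.83 after WGA and 6.55, 6.91 and 7.36 in control, a change of -2.33 ± 0.23. Its WGA arrays all lay below its control arrays, the reverse of alpha-Est9. alpha-Est5 and alpha-Est3 rose by 1.53 ± 0.17 and 1.07 ± 0.16, while alpha-Est7 had a change of 0.02 ± 0.23, not called. Jheh2 had 6.38, 6.31 and 6.38 after WGA and 8.64, 8.83 and 8.69 in control, a change of -2.36 ± 0.17. The falls numbered 3 without control replicate 2, WGA replicate 1 or WGA replicate 2, and 2 with the deposited or the spike-in scaling.

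**Figure D5:**
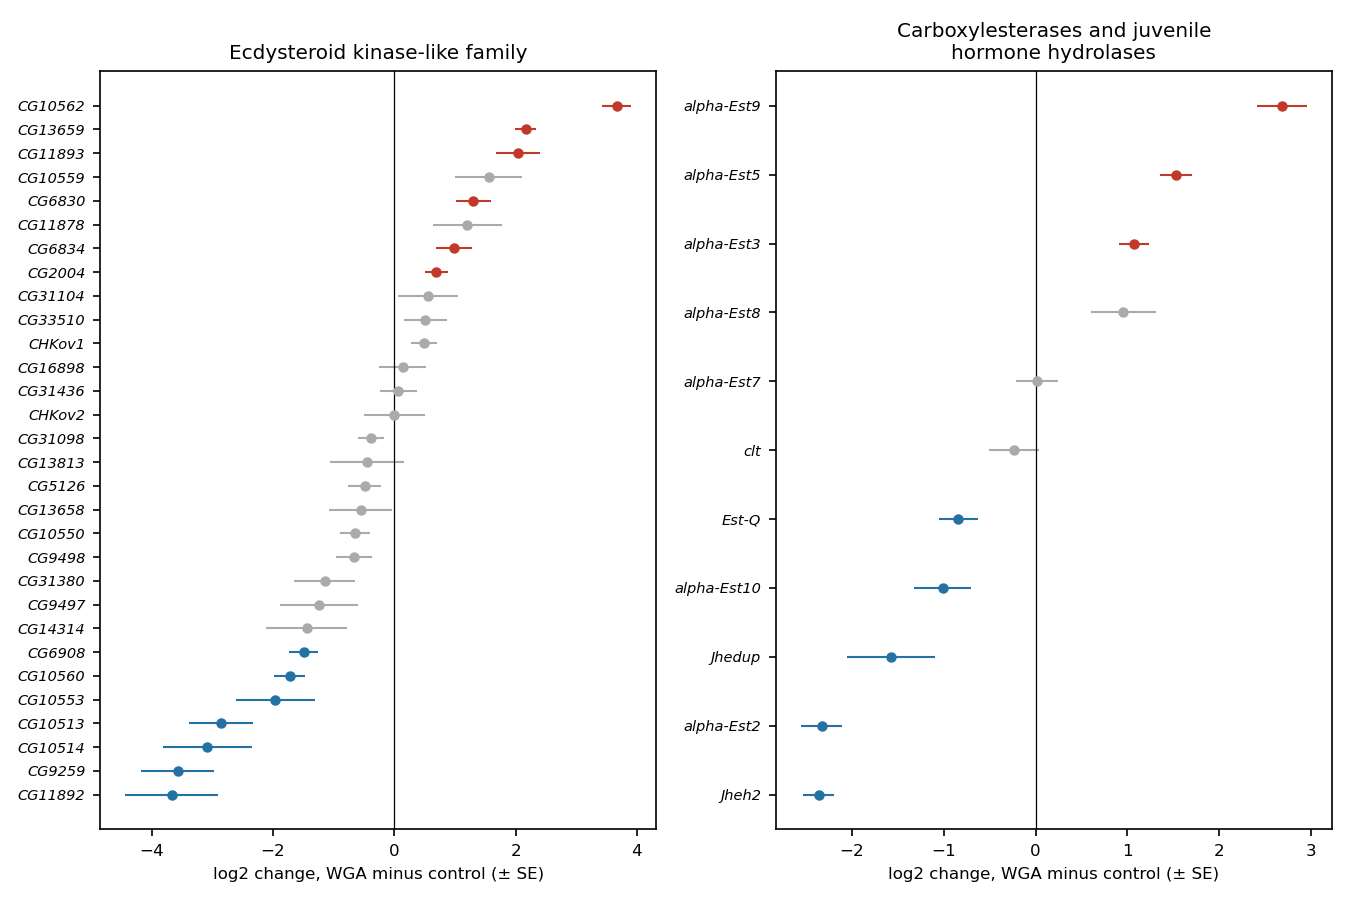
Log2 change, WGA minus control, of each tested member of the ecdysteroid kinase-like family (left) and of the carboxylesterases and juvenile hormone hydrolases (right), with SE bars (red, rose; blue, fell; grey, not called). Called members lie on both sides of 0 in both families, from CG11892 to CG10562 and from Jheh2 to alpha-Est9.

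Carriers of organic compounds also changed both ways. Of 26 genes for Oatp, organic cation and other carriers of the major facilitator superfamily 4 rose and 7 fell. Picot, of the phosphate cotransporter type, had 6.12, 6.04 and 5.96 after WGA and 8.20, 8.64 and 8.25 in control, a change of -2.33 ± 0.24. Orct, an organic cation carrier, had 3.67, 4.29 and 3.94 after WGA and 6.15, 6.22 and 6.03 in control, a change of -2.17 ± 0.24. MFS3, MFS14 and MFS9 changed by -2.24 ± 0.27, -1.77 ± 0.26 and -1.39 ± 0.17, and dmGlut by -1.99 ± 0.16. MFS16 rose by 1.52 ± 0.23 and the organic anion carrier gene Oatp33Eb by 1.08 ± 0.16. The 4 rises became 2 without control replicate 2, WGA replicate 1 or WGA replicate 3. Of 11 ABC transporter genes 3 rose and 2 fell, and no fall was called with the deposited or the spike-in scaling. Without control replicate 2, WGA replicate 1 or WGA replicate 2 there was also no fall, and there was 1 without control replicate 1. The drug and conjugate pump gene MRP had 7.86, 8.08 and 8.10 after WGA and 5.72, 6.16 and 6.40 in control, a rise of 1.92 ± 0.19 (adjusted p = 6.93e-06, limma). Mrp5 rose by 1.77 ± 0.42. Among 23 genes for water channels, ion exchangers and ion pumps 2 rose and 8 fell. The chloride channel gene ClC-a had 5.02, 6.72 and 5.82 after WGA and 7.44, 7.64 and 8.06 in control, a change of -1.86 ± 0.41. Eglp2, of the aquaporin family, had 5.48, 6.04 and 5.98 after WGA and 7.78, 7.07 and 7.89 in control, a change of -1.75 ± 0.24. The water channel gene Drip changed by -1.48 ± 0.22, and was not called with spike-in scaling. The ion and water group had 3 falls with the deposited and 2 with the spike-in scaling, and 5 without control replicate 2 or without WGA replicate 1. Its 2 rises became 4 with either scaling, and 1 without control replicate 1 or any one of the WGA arrays. Of 6 carbonic anhydrase genes, which interconvert carbon dioxide and bicarbonate, CAH2, CAH9 and CAH7 rose by 1.98 ± 0.56, 0.97 ± 0.18 and 0.73 ± 0.17. The CAH2 call was lost without control replicate 1, control replicate 2, WGA replicate 1 or WGA replicate 3. CAH3 and CAH1 fell, with changes of -0.84 ± 0.18 and -0.65 ± 0.13, and neither fall was called with the deposited or the spike-in scaling.

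In fatty acid synthesis, mitochondrial carriage and amino acid metabolism, more genes fell than rose. Of 22 genes for fatty acid synthesis, elongation and activation 9 fell and 2 rose (median -0.56). The fatty acid synthase gene FASN1 had 5.96, 6.23 and 5.90 after WGA and 7.78, 7.62 and 8.59 in control, a change of -1.97 ± 0.51. The acyl-CoA binding protein genes Acbp5 and Acbp1 changed by -1.94 ± 0.12 and -1.54 ± 0.22, while Acbp6 rose by 1.21 ± 0.14. The acyl-CoA synthetase gene bgm had 7.81, 7.95 and 7.78 after WGA and 9.18, 9.52 and 9.52 in control, a change of -1.56 ± 0.14. The falls of this group numbered 4 with the deposited or the spike-in scaling, and the FASN1 call was lost without control replicate 3. Its 2 rises became 1 with any single array left out. Of 17 mitochondrial carrier genes 7 fell and none rose. The aspartate and glutamate carrier gene aralar1 had 4.63, 4.78 and 4.76 after WGA and 6.28, 6.47 and 6.43 in control, a change of -1.68 ± 0.28. PMP34, whose mammalian relative carries cofactors into peroxisomes, changed by -1.92 ± 0.19. With either of those scalings, 3 of these carriers fell and 3 rose. Of 36 amino acid metabolism genes 7 fell and 2 rose. The aspartate aminotransferase genes, which work with aralar1 in the malate-aspartate shuttle, were among the falls. Got1 had 6.24, 6.11 and 6.25 after WGA and 7.64, 7.64 and 7.43 in control, a change of -1.37 ± 0.16, and Got2 had 7.56, 7.56 and 7.17 after WGA and 8.99, 8.89 and 8.66 in control, a change of -1.42 ± 0.18. All 3 shuttle genes were lower on every WGA array than on any control array. Sam-S makes S-adenosylmethionine, the methyl donor of the cell, and had 9.09, 7.66 and 7.55 after WGA and 6.15, 5.99 and 6.01 in control, a rise of 2.05 ± 0.34. On its probe set WGA replicate 1 stood above the other two WGA arrays, which were still above control. The amino acid group had 4 falls without WGA replicate 2, 4 with the deposited and 3 with the spike-in scaling. Its rises numbered 4 with either scaling, and 1 without control replicate 3, WGA replicate 2 or WGA replicate 3. The named short-chain and aldo-keto reductases had 4 falls of 6, led by Dhrs4 at -2.05 ± 0.14 and Ldsdh1, on lipid droplets, at -1.78 ± 0.13, the 2 that were also called with the deposited and spike-in scalings.

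Some regulatory genes were among the calls. Hr96, a nuclear receptor known in flies for its part in lipid, sterol and foreign compound responses, had 6.70, 6.64 and 6.36 after WGA and 4.21, 4.67 and 3.94 in control, a rise of 2.29 ± 0.25 (adjusted p = 1.72e-05, limma). It was 1 of 2 rises among 11 tested nuclear receptor genes. Of 13 basic leucine zipper genes 3 rose, with REPTOR-BP at 1.00 ± 0.16 and Jra, the fly Jun, at 0.77 ± 0.17. Of 21 GATA, homeobox and other factors of midgut regions only nub was called. It had 6.23, 6.17 and 6.38 after WGA and 4.67, 4.50 and 4.44 in control. With the deposited scaling 6 of these factors rose, and with spike-in scaling 7. Among 38 genes of nuclear pores and transport 7 rose and none fell. The importin gene Karybeta3 rose by 1.37 ± 0.19, while the count ranged down to 1 without WGA replicate 2, 3 without control replicate 1 or WGA replicate 1 and 4 without WGA replicate 3, and was 14 and 17 with the deposited and the spike-in scaling. Of 23 deubiquitinase genes 5 rose and none fell, with Usp14, which works at the proteasome, at 1.34 ± 0.24 and Uch at 1.26 ± 0.24. The count was 3 without WGA replicate 2, and 13 and 14 with the deposited and spike-in scalings.

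Some families gave no call. None of 12 tested genes of the hexosamine pathway and N-acetylglucosamine handling, the sugar that WGA binds, passed the limma test. Their changes ran from -0.35 to 0.87, and 1 was higher at an unadjusted p under 0.05. Oga, which removes N-acetylglucosamine from proteins, had a change of 0.87 ± 0.39 (adjusted p = 0.137, limma), and sxc, which adds it, one of 0.02 ± 0.22. With the deposited scaling 2 of these genes were called higher and with spike-in scaling 3. None of 28 genes for cell cycle and DNA replication was called in limma, and 1 was higher at an unadjusted p under 0.05. With the deposited or the spike-in scaling 4 of them were called higher. None of 10 clock genes was called, and 1 was higher at an unadjusted p under 0.05, with 2 called higher with either scaling. Of 46 tested odorant, gustatory and ionotropic receptor genes 2 were called, both lower and both with a WGA mean below the filter level.

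The changed genes were spread over the chromosome arms. The share called was 20.9% of 1343 tested genes on X, 22.5% of 1420 on 2L, 24.1% of 1600 on 2R, 22.8% of 1526 on 3L and 21.3% of 1958 on 3R. On chromosome 4 it was 11.1% of 36, 4 calls in all, with Rad23 the largest rise at 1.24 ± 0.26. Some changed genes were neighbours in the order of the RefSeq Release 6 table. There were 10 runs of 4 or more neighbouring tested genes called in the same direction, 3 rising and 7 falling, with 47 genes in them. On X, CG32750, vanin-like, Btnd and Efr fell together, with changes from -3.66 ± 0.54 to -0.76 ± 0.24. With the deposited scaling the Btnd and Efr calls were lost, and with spike-in scaling that of CG32750 too. The Btnd call was also lost without control replicate 1, control replicate 2, WGA replicate 1 or WGA replicate 2. Btnd is related to biotinidase, of the same enzyme family as vanins. On 2L a run of CG8997, CG7916, CG7953, CG7968 and Ance fell, all bright in control. CG7916 had 9.40, 9.84 and 10.46 after WGA and 11.75, 11.86 and 12.00 in control, a change of -1.97 ± 0.21. Ance, a relative of angiotensin-converting enzyme, had 8.56, 8.60 and 8.71 after WGA and 9.86, 9.88 and 9.94 in control, a change of -1.27 ± 0.12. In this run CG7953 and CG7968 were not called with the deposited or spike-in scaling. On 2R a run of CG44251, CG13321, CG13323 and CG13324 rose. CG13323 had 11.51, 11.33 and 11.53 after WGA and 8.97, 9.14 and 8.76 in control, a rise of 2.50 ± 0.18. CG13321 had 12.49, 12.24 and 12.27 after WGA and 10.89, 10.70 and 10.89 in control, a rise of 1.5 ± 0.13. Its neighbour CG13324 was low on control replicate 3 alone, at 1.63 against 4.93 and 5.26 on the other two, and its call was lost without any one of the WGA arrays. On 3L a run of 7 rose from Ssk, a smooth septate junction gene, to CG6933, with changes between 0.47 and 2.70. The smallest, of the chitin-binding gene CG7290 at 0.47 ± 0.11, had the opposite sign with median centring (-0.066) and was not called with the deposited or the spike-in scaling.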

How the data were processed

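RNA of larval midguts was hybridised to Affymetrix fly arrays, per the labels. The deposited values are linear signal intensities, 1 for each probe set on each array. The authors used GCOS, per the submitters' processing notes, and how it was run (version, scaling) is not given in the sources used here. The arrays' trimmed means differed up to 1.90-fold. An offset of 1.72, the 20th percentile of all signals, was added, log2 values were quantile normalised, and probe sets above the 40th percentile (log2 2.79) on at least 3 of 9 arrays were tested. Quantile normalisation gives all arrays 1 distribution, so a difference in total signal between groups is removed. The 44 control probe sets were left out. The platform annotation named 1 gene for 12443 probe sets, more than 1 for 327 and no gene for 1196, and 12394 of those with 1 gene matched a symbol of the RefSeq table. The brightest tested probe set stood for each of 627 genes with several.

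Group means of all 9 arrays were fitted with limma 3.58.1 in R 4.3.3 (lmFit, eBayes with a trend), two-sided, with Benjamini-Hochberg adjustment over 9675 probe sets and a threshold of 0.05. The fit was tested on simulated data. Same-numbered arrays of the 2 groups had residual correlations of -0.003 to 0.056, and the main fit did not use the numbers as pairs. Named genes were the 15 largest rises and 15 largest falls with a name and the 6 and 6 with a number only, without overlap between the groups and outside earlier lists. To these came up to 4 called members per family, the extremes of each chromosome arm and the members of runs; further members are named with their values. The members, families and lists were chosen with earlier results of these data known. Alternatives covered scaling, offset, filter, variance prior, array weights, the arrays fitted, a replicate block, a minimum change, the median probe set per gene and each array left out. Promoter motifs were not analysed here, and 1 family is not reported here.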

Additional observations from a re-analysis of the deposited data

Results flagged for a closer look

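Outside the comparison, 6 of the control probe sets that the array carries for fly housekeeping transcripts had higher deposited signals on every WGA array than on any control array. The ratio of the WGA mean to the control mean was 4.32 for the 3 prime, 5.84 for the middle and 6.34 for the 5 prime actin probe set. The 5 prime actin signals were 1046, 965 and 1308 after WGA and 146, 230 and 148 in control, so the groups lay far apart. For eIF-4a the ratio was 2.36 at the 5 prime and 1.93 at the middle probe set, and for the 5 prime GAPDH probe set it was 1.4. The 3 prime and middle GAPDH probe sets, with ratios of 1.29 and 1.32, and the 3 prime eIF-4a probe set, at 1.61, overlapped between the groups. These signals are as deposited, without the normalisation used for the genes. As deposited, the median log2 change over all tested probe sets was 0.47, and this shift is not taken out of the ratios.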

How the results depend on the processing

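The 42 genes with the largest changes kept their call and direction with every array left out in turn and under the other alternatives run, except that 40 kept them with a minimum absolute log2 change of 1. Over all tested probe sets, the 1125 rises and 975 falls became 2118 and 460 when signals were left as deposited, and 2201 and 416 under spike-in scaling. With the minimum change of 1 they became 141 and 165. Leaving out 1 array gave 752 to 1049 rises and 758 to 882 falls. Among the named genes, the fall of ClpP, a mitochondrial protease gene, reversed to 0.021 with the deposited and 0.088 with spike-in scaling, and the rise of CG7290 to -0.066 with median centring. The cause was not tested. Over all named genes and alternatives, 586 values kept their direction but missed the threshold and 3977 kept both. Residual correlations were -0.003 to 0.056 for arrays of the same number and -0.057 to 0.024 for other numbers. Of the 6 arrays, 4 correlated best with their own number. These values do not settle whether the replicate numbers pair the arrays. With a replicate block 1210 rose and 1046 fell. Dim genes limit precision: where a group mean lay below log2 2.79, the size of a change is uncertain. No batch is named in the labels, and a difference in age or handling cannot be told apart from the diet.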

Other observations

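Other groups showed smaller or single changes. Genes for iron-sulfur cluster and coenzyme Q synthesis gave 3 rises and no fall of 14, with the scaffold gene IscU at 1.09 ± 0.17 and the ferredoxin gene Fdx2 at 0.99 ± 0.15. Of 13 thioester, Nimrod and scavenger protein genes 3 rose: besides pes, the thioester protein gene Tep4 rose by 1.94 ± 0.24 and the engulfment receptor gene drpr by 0.99 ± 0.25. Among 6 C-type lectin and galectin genes galectin rose by 1.5 ± 0.20. Regucalcin, a calcium-binding protein gene, changed by -2.10 ± 0.27. Of 15 mitochondrial import genes 1 rose and 1 fell, with a median change of -0.70. Tspo, for a protein of the outer membrane, rose by 1.42 ± 0.14. Roe1 fell, with a change of -1.28, and was not called with the deposited or the spike-in scaling. Peroxin genes, needed to build peroxisomes, gave 3 falls of 9, and none was called with the deposited or the spike-in scaling.

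Of 99 symbol stems with at least 5 tested genes, 9 had 50% or more of their genes risen and 7 had 50% or more fallen, while 21 had none called in limma. Outside the earlier lists, the stems with 50% or more risen were Arpc, with 6 of 6, and CAH, with 3 of 5. The CAH stem was split, as its other 2 genes fell, and the CAH2 rise was not steady to single arrays left out.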
